A study of Mus musculus with 9 samples.

Results

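Histone genes make up 81 of the 24930 gene symbols measured here in poly(A)-selected RNA of mouse intestinal epithelium. They were taken by symbol alone: 69 begin with Hist1h, Hist2h, Hist3h or Hist4h and are the replication-dependent histone genes, and 12 begin with H2af or H3f3 and are the replacement histone genes. The symbols Hist1h2al and Hist3h2bb-ps of the first class and H2afy3 of the second have only processed pseudogene models in GENCODE M21 and were kept, since the rule is by symbol. The design text describes crypt cells of control mice and of mice with a gain-of-function allele of β-catenin, the effector of Wnt signalling, collected 8 to 10 days after 1 mutant allele was induced. Each of day 8, day 9 and day 10 has 1 control library and 1 library of each of 2 mutant sets, so every group has 3 libraries. The sample titles call set A Bcathet and set B Cdx2het_Bcathet, so that by title both carry a heterozygous β-catenin mutation and set B also a heterozygous mutation of Cdx2, an intestinal transcription factor. The library names attach CDX2HET to set A instead and give EXON3 for both sets, so which set carries the Cdx2 allele is not settled here, and the sets are called A and B throughout. The sources used here do not give strain, sex, age, the Cre driver or the number of animals behind a library.

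Replication-dependent histones are made in bulk during S phase to package newly copied DNA. Their mRNAs lack introns and, as a rule, end without a poly(A) tail just after a conserved stem-loop, which is bound by the stem-loop binding protein Slbp. Replacement histones are made throughout the cell cycle from ordinary polyadenylated mRNAs and are placed in chromatin outside replication. The RNA was purified on poly-T beads, which hold polyadenylated RNA, so the values below are of histone RNA that came through that step and not of all histone RNA in the cells.

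The sequences that divide the 2 classes lie at the 3′ end of the transcripts. The stem-loop was searched as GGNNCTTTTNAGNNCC, which is 16 bases long, on the transcript strand of the GENCODE M21 transcript models, and the poly(A) signal as AATAAA or ATTAAA starting in the last 50 bases of a model. In the replication-dependent class 44 of the 67 genes with a protein-coding model held the stem-loop pattern (65.7%), against 1 of 11 replacement genes (9.09%) and 27 of the 21799 other protein-coding genes (0.124%). A poly(A) signal was found in 17 of those 67 genes (25.4%), in 7 of the 11 replacement genes (63.6%) and in 78.1% of the other coding genes. Several models without either element are about as short as the coding sequence alone. Examples are Hist1h2ai with 393 bases, Hist1h2bl with 381, Hist1h4k with 312 and H2afb1 with 348. Such models hold little or no 3′ region to search, so these shares do not show that the remaining genes lack the elements. The stem-loops of the most abundant genes that have one are shown here with 5 bases before and 3 after, and capitals mark the 16 bases of the pattern.
Hist1h2ap: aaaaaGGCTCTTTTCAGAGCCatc
Hist1h2ao: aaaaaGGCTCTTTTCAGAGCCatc
Hist2h2aa1: aaaaaGGCTCTTTTCAGAGCCacc
Hist3h2a: ccaaaGGCTCTTTTCAGAGCCacc
Hist1h1c: caaaaGGCTCTTTTCAGAGCCacc
Hist1h4i: ttaaaGGCCCTTTTTAGGGCCacc
H2afx: acaaaGGCCCTTTTAAGGGCCacc

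The core of the first 5 of these was the most frequent of the 7 cores seen and stood in 26 genes. That of Hist1h4i stood in 2 genes, itself and Hist2h4, and that of H2afx, the only replacement gene with a stem-loop pattern, in no other member. What follows the stem-loop differed between the genes. The models of Hist1h2ap, Hist1h2ao and Hist2h2aa1 ran on for 3, 31 and 35 bases, whereas those of Hist1h4i, H2afx, Hist1h1c and Hist3h2a ran on for 330, 822, 840 and 1643 bases and carried a poly(A) signal near their end. The signals of those 4 genes, of Hist2h2be, which has a signal and no match to the stem-loop pattern, and of 5 abundant replacement genes are shown with up to 10 bases on each side, and capitals mark the hexamer.
Hist1h4i: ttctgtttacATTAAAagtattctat
H2afx: ggctaattttATTAAAggatcgtttg
Hist1h1c: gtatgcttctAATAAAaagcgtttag
Hist3h2a: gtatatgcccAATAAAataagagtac
Hist2h2be: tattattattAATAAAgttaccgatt
H3f3a: tttgaaaaatAATAAAagtaccaata
H3f3b: aggccttacaAATAAActagtaagtt
H2afz: ctgcttactaATTAAAcagtgcatct
H2afv: aatgcacagaAATAAAgaaactagca
H2afj: aaaaaggacaAATAAAgaatatatta

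The 2 classes lay at different levels in this RNA. Levels are given in FPKM, fragments per kilobase of transcript scaled by a factor for each library, so that genes of different length can be compared. The median gene of the replacement class had a mean of 61.0 FPKM over the 9 libraries and that of the replication-dependent class 0.784 FPKM. The replacement genes were of 2 kinds: 7 had a mean of at least 40 FPKM and the other 5 were under 1 FPKM, with H2afb1, H2afb2 and H2afb3 listed at 0 in every library. Of the 69 replication-dependent genes 46 were under 1 FPKM, 35 were listed at 0 in some but not all libraries and 1, Hist1h2ba, in all 9. Only 7 had a mean of at least 10 FPKM and 3 a mean of at least 40 FPKM. On the low values, 1 FPKM of a 1 kb transcript corresponds to 17 to 19.3 fragments, depending on the library. A gene under 1 FPKM therefore rests on few fragments, and histone transcripts are often shorter than that.

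The replication-dependent genes were also set out by the elements of their models. The 31 genes with a stem-loop and no poly(A) signal had a median of 0.869 FPKM, the 13 genes with both 0.579 FPKM, the 4 with a signal alone 0.784 FPKM and the 19 with neither 0.520 FPKM. The 7 genes of at least 10 FPKM were spread over these classes: Hist1h2ap, Hist1h2ao and Hist2h2aa1 had the stem-loop alone, Hist3h2a, Hist1h1c and Hist1h4i had both elements, and Hist1h2bc had neither. These counts describe annotated models, and a model without a 3′ region was counted as having neither element. The 3′ ends of the RNA in these cells were not measured.

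**Figure D1:**
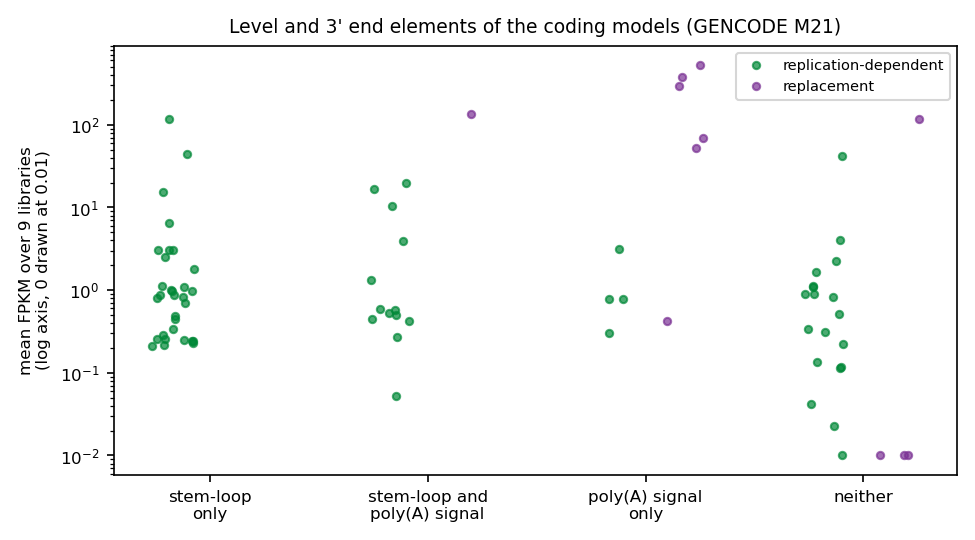
Mean level over the 9 libraries of each histone gene (FPKM, log axis, genes at 0 drawn at 0.01), grouped by class and by the elements found in its protein-coding models. In each replication-dependent column most points lie below 1 FPKM, and the highest reaches 118 FPKM among genes with a stem-loop alone but 3.12 FPKM among genes with a signal alone, while 7 of the replacement genes lie above 40 FPKM.

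Histone sequences repeat, and this limits how well single genes can be told apart. A transcript of another gene at least 97% identical over at least 200 bases was found for 52 of the 69 replication-dependent and 5 of the 12 replacement genes. Hist1h2ap and Hist1h2ao are 100% identical over 452 bases, and Hist2h2aa1 and Hist2h2aa2 over 528 bases. Hist1h2bc matches Hist1h2br at 99.5% over 382 bases. Hist1h2bq and Hist1h2br have the same value in every library. Values of these genes are uncertain singly, and for the most abundant pair the sum is given as well. H3f3a and the gene model Gm12657 are 98.5% identical over 411 bases, with Gm12657 between 0.876 and 2.17 FPKM. Closer copies have no value here, among them Gm6421, 99.3% identical to H3f3a over 409 bases. The same holds for Gm8203, 100% identical to H2afz over 387 bases. How such copies bear on the values of H3f3a and H2afz cannot be seen. The model of Hist3h2a shares 709 identical bases with Trim17, which lay between 0.127 and 0.479 FPKM.

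Facts of the whole set of libraries bear on what follows. Summed FPKM was 624923 to 755802 per library. Over the 15138 genes above 0 in every library, the median ratio to the gene's geometric mean was 1.00276 in each library. The deposited values were thus already matched between libraries on that median, and not on their sum. The 12097 genes that reached 1 FPKM in 3 or more libraries were tested with limma on log2(FPKM + 1). In a principal component analysis the set B day 9 library stood beside the controls, at -19.1 on the first component (43.5% of the variance) against -22.7 to -21.6 in controls and 2.57 to 30 in the other mutant libraries. Results are therefore also given without it, a choice that by itself tends to widen the differences between mutants and controls. The 10 epithelial markers summed to 6919 to 7757 FPKM in controls and 6923 to 8333 FPKM in mutants. T cell markers summed to 57.0 to 98.0 FPKM in controls and 20.1 to 80.5 FPKM in mutants, fibroblast markers to 5.94 to 6.92 and 3.19 to 19.8 FPKM, macrophage markers to 5.25 to 5.86 and 4.93 to 15.2 FPKM, B and plasma cell markers to 2.75 to 5.33 and 3.18 to 4.77 FPKM, and erythroid markers to 3.89 to 7.04 and 1.57 to 39.6 FPKM, with Hbb-b1 and Hbb-b2 listed at 0. Only 10 of the 13 T cell markers and 6 of the 8 B and plasma cell markers have a value here, so those sums are of part of their lists. The part of all these cell types in the histone values was not tested. In bulk RNA fewer cells of a kind and less RNA per cell cannot be told apart.

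Of the replacement histones, the H3.3 genes were the most abundant. H3f3a and H3f3b encode the same protein, H3.3, which is placed at active genes by Hira and in repeats by other chaperones. H3f3a was at 532, 543 and 540 FPKM in the controls of days 8, 9 and 10, at 519, 487 and 533 FPKM in set A and at 526, 525 and 556 FPKM in set B. H3f3b was at 281, 290 and 311 FPKM in controls, 257, 289 and 314 FPKM in set A and 284, 299 and 314 FPKM in set B. Control and mutant values overlapped for both genes, and the log2 fold changes of mutants against controls were -0.04 ± 0.06 (SE, adjusted p = 0.738, limma) for H3f3a and -0.007 ± 0.08 (adjusted p = 0.969, limma) for H3f3b. H3f3a gave 62.7% to 66.9% of the summed H3.3 FPKM in every library.

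The H2A.Z genes H2afz and H2afv encode near-identical variants that mark promoters and enhancers. Their values ran differently across the libraries, and a difference between these genes was not tested. H2afz was at 359, 398 and 379 FPKM in controls, 372, 351 and 407 FPKM in set A and 400, 333 and 398 FPKM in set B. H2afv was at 80.7, 83.3 and 92.8 FPKM in controls, 62.5, 74.5 and 60.8 FPKM in set A and 57.1, 67.8 and 51.7 FPKM in set B. Every mutant library was below every control for H2afv, while H2afz overlapped throughout. The H2afv means were 85.6 ± 6.34 FPKM (SD, n = 3) in controls and 62.4 ± 8.03 FPKM (SD, n = 6) in mutants. Its log2 fold change was -0.46 ± 0.10 (SE, adjusted p = 0.0739, limma), which does not pass the threshold of 0.05. For H2afz it was -0.01 ± 0.08 (SE, adjusted p = 0.961, limma). H2afv made up 17.3% to 19.7% of the summed H2afz and H2afv FPKM in controls and 11.5% to 17.5% in mutants, ranges that touch at the set A day 9 library.

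H2afx, which encodes the H2A.X that is phosphorylated beside DNA breaks, is the replacement gene with both a stem-loop and a poly(A) signal. It was at 152, 174 and 153 FPKM in controls, 124, 133 and 120 FPKM in set A and 124, 125 and 109 FPKM in set B. All 6 mutant libraries were below all 3 controls. The means were 159.9 ± 12.2 FPKM (SD, n = 3) and 122.4 ± 7.84 FPKM (SD, n = 6), and the log2 fold change of -0.38 ± 0.08 (SE, adjusted p = 0.0553, limma) falls short of the threshold.

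The other replacement genes overlapped between the groups. H2afy, the gene of macroH2A1, was the steadiest beside H3f3a: it lay between 113 and 122 FPKM in all 9 libraries, with a log2 fold change of 0.0005 ± 0.06 (SE, adjusted p = 0.996, limma). H2afj, the gene of the H2A variant H2A.J, was at 53.6, 56.6 and 56.8 FPKM in controls, 51.9, 57.1 and 44.9 FPKM in set A and 51.3, 48.5 and 45.6 FPKM in set B. Its log2 fold change was -0.16 ± 0.08 (SE, adjusted p = 0.295, limma). Among the untested genes, H2afy2, the gene of macroH2A2, lay between 0.129 and 0.951 FPKM.

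**Figure D2:**
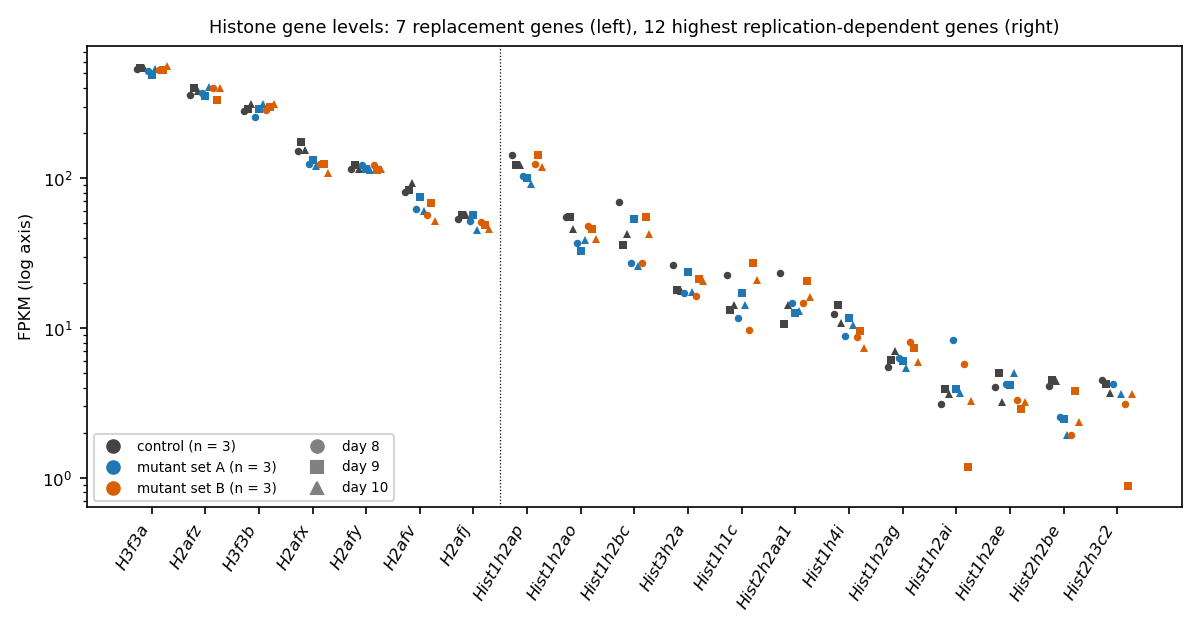
FPKM (log axis) of the replacement genes and of the 12 most abundant replication-dependent genes in each of the 9 libraries, coloured by group and shaped by day. Control and mutant points separate for H2afx and H2afv and mix for H3f3a, H2afz, H3f3b and H2afy, and Hist2h3c2 at 0 in set A day 9 cannot be drawn on this axis.

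Core histone genes of the H2A type supplied most of the replication-dependent signal, with 60.9% to 74.1% of the class's FPKM in each library. Hist1h2ap alone supplied 31.5% to 40.5%. It was at 142, 122 and 123 FPKM in controls, 103, 99.6 and 91.4 FPKM in set A and 124, 142 and 119 FPKM in set B. All set A libraries were below the controls, whereas set B overlapped them. The log2 fold change was -0.39 ± 0.10 (SE, adjusted p = 0.133, limma) for set A and -0.004 (adjusted p = 0.987, limma) for set B, and the difference between the sets was 0.39 ± 0.10 (SE, adjusted p = 0.955, limma), so a difference between the mutant sets was not established. Its near-twin Hist1h2ao was at 54.8, 55.5 and 45.5 FPKM in controls, 36.7, 32.9 and 38.9 FPKM in set A and 48.3, 45.8 and 39.5 FPKM in set B. Both sets together gave -0.36 ± 0.09 (SE, adjusted p = 0.0944, limma). Summed, the pair was at 197, 177 and 169 FPKM in controls, 139, 132 and 130 FPKM in set A and 172, 188 and 159 FPKM in set B. The sum's log2 fold change was -0.24 ± 0.08 (SE, adjusted p = 0.135, limma) for both sets, -0.43 ± 0.09 (SE, adjusted p = 0.104, limma) for set A and -0.06 ± 0.09 (SE, adjusted p = 0.753, limma) for set B.

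Hist3h2a was at 26.2, 18.1 and 17.8 FPKM in controls, 17.2, 23.6 and 17.5 FPKM in set A and 16.3, 21.2 and 20.5 FPKM in set B. Hist2h2aa1 was at 23.2, 10.6 and 14.3 FPKM in controls, 14.6, 12.6 and 13.0 FPKM in set A and 14.6, 20.5 and 16.1 FPKM in set B. Both are H2A genes, and neither separated the groups, with log2 fold changes of -0.08 ± 0.16 (SE, adjusted p = 0.806, limma) and -0.02 ± 0.21 (SE, adjusted p = 0.973, limma). Further H2A genes were low. Hist1h2ag was at 5.46, 6.10 and 7.01 FPKM in controls, 6.33, 6.01 and 5.38 FPKM in set A and 8.08, 7.39 and 5.97 FPKM in set B, with a log2 fold change of 0.06 (adjusted p = 0.776, limma). Hist1h2ai was at 3.09, 3.93 and 3.64 FPKM in controls, 8.35, 3.90 and 3.70 FPKM in set A and 5.75, 1.18 and 3.27 FPKM in set B. Hist1h2ae was at 4.03, 5.04 and 3.23 FPKM in controls, 4.26, 4.17 and 5.02 FPKM in set A and 3.3, 2.89 and 3.2 FPKM in set B, also overlapping.

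The H2B genes Hist1h2bc and Hist2h2be differed in how far their libraries spread. Hist1h2bc was at 69.1, 35.6 and 42.7 FPKM in controls, 27.1, 53.6 and 25.9 FPKM in set A and 27.2, 54.9 and 42.3 FPKM in set B. It was the most variable of the 7 replication-dependent genes with a mean of at least 10 FPKM. Its coefficient of variation was 35.4% over the 9 libraries, and its groups overlapped (log2 fold change -0.36 ± 0.32, SE, adjusted p = 0.559, limma). Hist2h2be was at 4.10, 4.51 and 4.45 FPKM in controls, 2.54, 2.49 and 1.93 FPKM in set A and 1.92, 3.82 and 2.35 FPKM in set B. Every mutant library was below every control, with the set B day 9 library nearest to them. The means were 4.35 ± 0.224 FPKM (SD, n = 3) and 2.50 ± 0.697 FPKM (SD, n = 6), and the log2 fold change was -0.63 ± 0.15 (SE, adjusted p = 0.0824, limma).

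Genes of H3, H4 and H1 gave little signal. Over the 9 libraries the replication-dependent genes summed to 221 FPKM for H2A, 55.1 FPKM for H2B, 20.3 FPKM for H4, 17.6 FPKM for H1 and 14.4 FPKM for H3. Nucleosomes hold the 4 core histones in equal number, so these sums do not have the proportions of the proteins. The leading H3 gene was Hist2h3c2, at 4.49, 4.24 and 3.69 FPKM in controls, 4.2, 0 and 3.65 FPKM in set A and 3.10, 0.877 and 3.65 FPKM in set B. The groups overlapped, and both values under 1 FPKM are of day 9. Its near-twin Hist2h3c1, 100% identical over 666 bases, was listed at 0 in all libraries but those same 2, where it was at 0.781 FPKM in set A and 3.29 FPKM in set B. Summed, the pair was at 0.781 FPKM in set A day 9 and 4.17 FPKM in set B day 9, so only the set A library was low, and the other 7 lay between 3.1 and 4.49 FPKM. Hist1h4i, an H4 gene, was at 12.4, 14.3 and 10.8 FPKM in controls, 8.87, 11.6 and 10.5 FPKM in set A and 8.69, 9.56 and 7.38 FPKM in set B. Set B lay below the controls and set A overlapped them, and the log2 fold change for both was -0.38 ± 0.11 (SE, adjusted p = 0.128, limma). Hist1h1c, the gene of the linker histone H1.2, supplied nearly all of the H1 sum. It was at 22.7, 13.3 and 14.2 FPKM in controls, 11.7, 17.2 and 14.2 FPKM in set A and 9.64, 27.1 and 20.9 FPKM in set B, with a log2 fold change of -0.04 ± 0.31 (SE, adjusted p = 0.961, limma).

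Hist1h2bc, Hist1h1c and Hist3h2a shared a pattern of libraries that the groups do not describe. Within each of the groups they were highest in the same library: control day 8, set A day 9 and set B day 9. The order of the remaining libraries was not shared. Their coefficients of variation were 35.4%, 34.1% and 16.9%, against 3.25% for H2afy and 3.65% for H3f3a. Hist1h2ao and H2afv, which lack the pattern, had 17.8% and 19.4%. This pattern was noticed in the values of Hist1h2bc, Hist1h1c and Hist3h2a, and no test was made of it. It is not particular to them. The low H2A genes Hist1h2ac and Hist1h2ah were highest in the same libraries. Hist1h2ac was at 1.79, 0.892 and 2.05 FPKM there, and Hist1h2ah at 2.56, 2.71 and 1.37 FPKM. How many of all genes share the pattern was not counted. Hist1h2ap and Hist1h2ao do not have it, since set A day 9 is not their highest library.

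**Figure D3:**
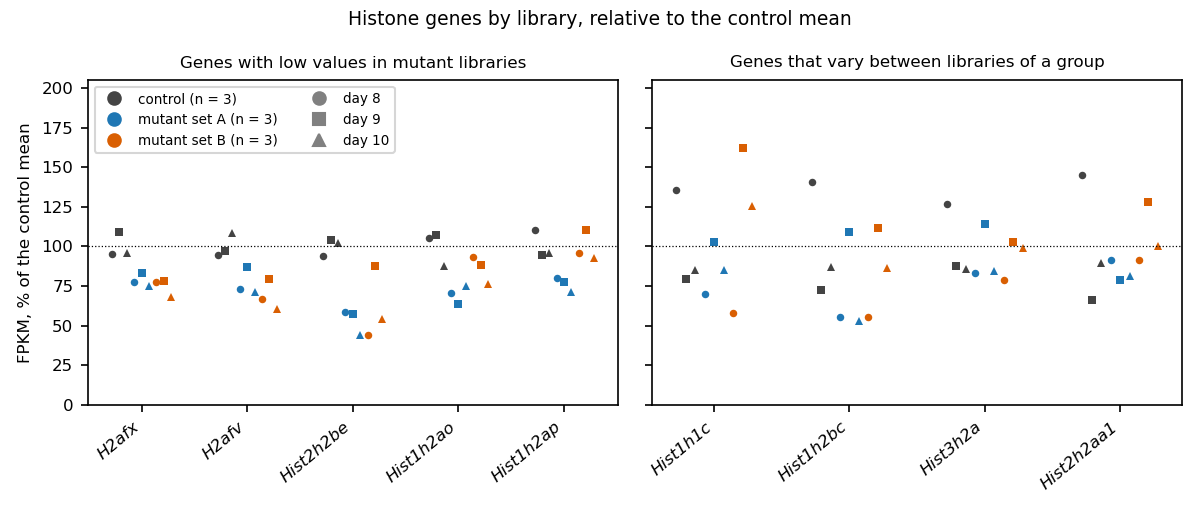
FPKM of 9 histone genes in each library as a percentage of the control mean (dotted line at 100), coloured by group and shaped by day. H2afx, H2afv and Hist2h2be are below every control in each mutant library, while Hist1h1c, Hist1h2bc and Hist3h2a are highest in control day 8, set A day 9 and set B day 9 within their groups.

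Summed by class, replication-dependent genes were at 416, 341 and 330 FPKM in controls, 279, 316 and 269 FPKM in set A and 305, 377 and 322 FPKM in set B. The means were 362 ± 47.1 FPKM (SD, n = 3) in controls, 288 ± 24.8 FPKM (SD, n = 3) in set A and 335 ± 37.5 FPKM (SD, n = 3) in set B. Set A was below all controls and set B overlapped them, and the mutant mean was 0.860 times the control mean. Without the control day 8 library, the highest of all, the log2 ratio moved from -0.22 to -0.11. The replacement genes summed to 1573, 1668 and 1647 FPKM in controls, 1508, 1507 and 1593 FPKM in set A and 1565, 1514 and 1590 FPKM in set B, and the mutant mean was 0.949 times that of controls, with overlapping values. Replication-dependent genes held 18.2% ± 2.37 (SD, n = 3) of histone FPKM in controls and 16.8% ± 1.86 (SD, n = 6) in mutants. No p-value is given for these sums over chosen genes.

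**Figure D4:**
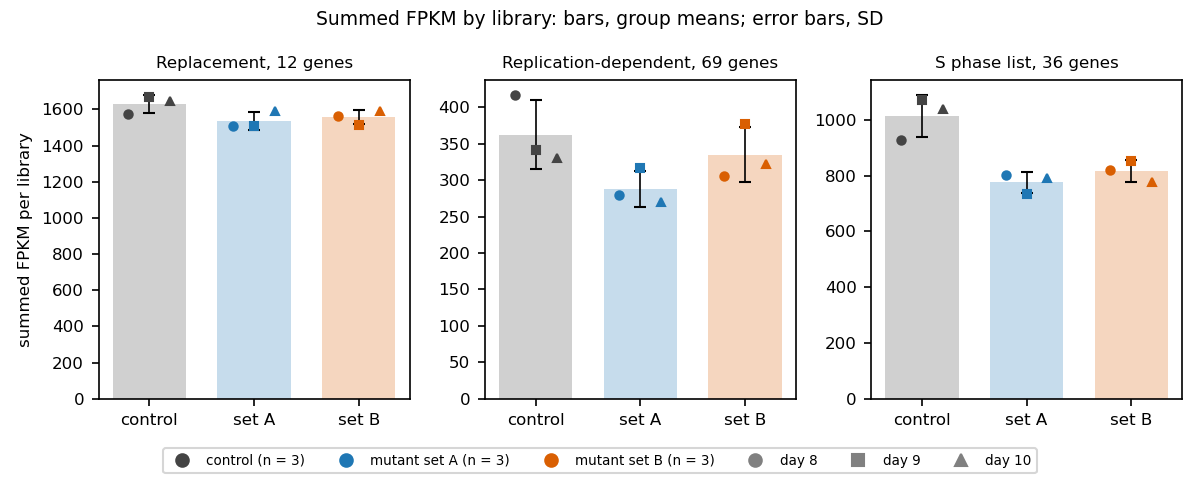
Summed FPKM per library of the replacement genes, of the replication-dependent genes and of the 36 S phase genes; bars are group means and error bars SD (n = 3). Set A lies below the controls in the replication-dependent sum and set B overlaps them, and for the S phase genes both sets lie below the controls.

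Across the tested genes, 34 replication-dependent and 7 replacement genes passed the filter on low values, which left 35 and 5 untested. With both mutant sets against the controls no member passed an adjusted p of 0.05 in limma, where 140 of 12097 genes did (1.16%, with 0.513% higher and 0.645% lower). None passed for set A, with 0.215% of all genes, or for set B, with 0.628%. Between set B and set A 0 of all genes passed (0%). At an unadjusted p under 0.05, 8 of the 41 tested members were lower with both sets and none higher, where 21% of all genes had such a p and 10.8% were lower. Those 8 were 6 replication-dependent and 2 replacement genes. For set A 6 members were lower and 1 higher, beside 16.7% of all genes in either direction and 8.89% lower. For set B 5 were lower and none higher, beside 16.5% and 8.42%, and for set B against set A 4 were lower and 2 higher, beside 3.11% in either direction.

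The median log2 fold change with both sets was -0.10 over the tested replication-dependent genes, of which 23 of 34 were negative, and -0.04 over the tested replacement genes, of which 6 of 7 were negative. Over all genes it was -0.002, with 50.3% negative. Scaled to equal summed FPKM per library, which moved the median of all genes to 0.035, the counts were 21 of 34 and 3 of 7. Groups did not overlap for 3 of the 41 tested members, H2afx, H2afv and Hist2h2be, with mutants lower in each. Among untested members the same held for Hist1h2bn, at 0.631 to 0.662 FPKM in controls and 0 to 0.439 FPKM in mutants, values near the limit of the depth. Genes without overlap made up 7.37% of all genes tested with mutants lower and 5.19% with mutants higher.

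Without the set B day 9 library, those 3 genes fell with both sets. The log2 fold changes were -0.74 ± 0.10 (SE, adjusted p = 0.0114, limma) for Hist2h2be, -0.51 ± 0.09 (SE, adjusted p = 0.0211, limma) for H2afv and -0.40 ± 0.08 (SE, adjusted p = 0.0263, limma) for H2afx. They were 3 of 38 tested members, and 8.29% of all 12000 genes passed in that fit, 4.65% higher and 3.64% lower. For set A alone Hist2h2be passed (adjusted p = 0.0358, limma), where 1.05% of all genes did and 0.392% were lower. For set B alone all 3 passed, with adjusted p of 0.0188 for Hist2h2be, 0.0252 for H2afv and 0.0434 for H2afx (limma), where 4.03% of all genes did and 1.43% were lower. The calls of these genes therefore rest on leaving out 1 library, and their direction was the same with it. That library was left out for lying beside the controls, which tends to widen the differences of set B, and of both sets, from them. For set A alone the log2 fold change of Hist2h2be was -0.70 in both fits. Only its SE changed, from 0.18 to 0.11, since the spread is shared by all groups. Over all genes the share passing with both sets rose from 1.16% to 8.29%. The calls without it are thus no separate support for a change.

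**Figure D5:**
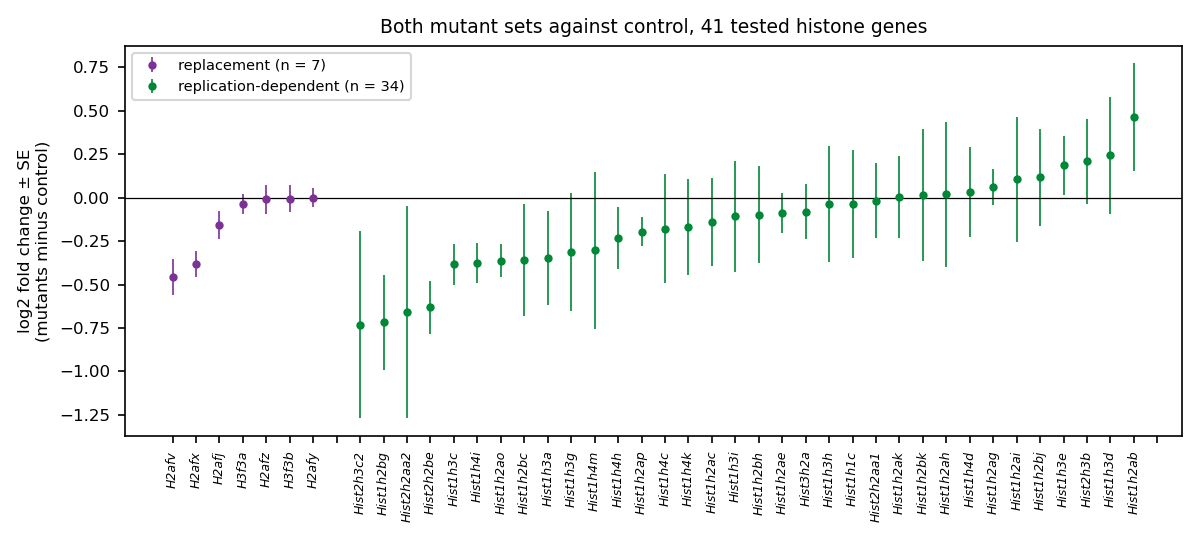
Log2 fold change of both mutant sets against controls with its SE, fitted on all 9 libraries, for the 7 replacement and 34 replication-dependent genes tested, each class ordered by fold change. H2afx, H2afv and Hist2h2be lie below 0 by several SE, and the low-abundance genes at both ends of the replication-dependent class have wide error bars.

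Genes that act with histones were described from fixed lists. Of 12 tested genes of histone RNA transcription and 3′ processing 0 passed, 10 were negative and the median log2 fold change was -0.11. Of all genes 1.16% passed and 50.3% were negative. Slbp, which binds the stem-loop, was at 33.9, 40.5 and 41.5 FPKM in controls, 43.4, 26.3 and 29.9 FPKM in set A and 35.1, 34.5 and 25.6 FPKM in set B. These overlap, with a log2 fold change of -0.26 ± 0.17 (SE, adjusted p = 0.412, limma). Npat, which activates histone gene transcription at the start of S phase, gave -0.17 ± 0.09 (SE, adjusted p = 0.306, limma).

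Among 27 tested histone chaperones 0 passed and 24 were negative, with a median of -0.15, where 1.16% of all genes passed and 50.3% were negative. Asf1b, which hands over H3 and H4, was at 27.8 ± 2.38 FPKM (SD, n = 3) in controls and 19.8 ± 1.80 FPKM (SD, n = 6) in mutants, with an adjusted p of 0.0510 (limma). Chaf1a, the large subunit of the replication-coupled assembly factor CAF-1, was at 15.3 ± 1.24 and 12 ± 0.881 FPKM (adjusted p = 0.0785, limma), and Nasp, a chaperone of H3 and H4, at 32.4 ± 4.27 and 24.6 ± 1.52 FPKM (adjusted p = 0.0808, limma). Anp32e, which removes H2A.Z, was at 30.5 ± 1.62 and 25.9 ± 0.774 FPKM (adjusted p = 0.0791, limma). None passed with all libraries, and Anp32e, Asf1b, Chaf1a, Hjurp and Nasp fell without set B day 9, where 3.64% of all genes did. Chaf1b, the middle subunit of CAF-1, gave an adjusted p of 0.172 (limma), and Hira, which places H3.3, one of 0.538 (limma).

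A list of genes of S phase, when replication-dependent histones are made, was set beside them. With both mutant sets against the controls 7 of 36 tested genes fell and none rose in limma, where 0.645% of all genes fell. All 36 were negative, beside 50.3% of all genes, with a median log2 fold change of -0.33. For set A and for set B alone 0 of the 36 passed in limma, where 0.215% and 0.628% of all genes did. At an unadjusted p under 0.05, 34 and 32 were lower, beside 8.89% and 8.42% of all genes. Their sum was 928 to 1071 FPKM in controls and 732 to 854 FPKM in mutants, without overlap. Among the 7 were Uhrf1, which keeps DNA methylation at forks, with -0.47 ± 0.07 (SE, adjusted p = 0.0320, limma), and Cdc6 and Mcm5, which license origins, with -0.44 (adjusted p = 0.0418, limma) and -0.43 (adjusted p = 0.0426, limma). Of 24 genes of G2 and mitosis 1, the spindle kinase Ttk, fell (-0.54 ± 0.07, SE, adjusted p = 0.0167, limma), and all 24 were negative with a median of -0.25. Without the set B day 9 library 24 S phase genes and 4 of G2 and mitosis fell, where 3.64% of all genes did. Whether the histone genes moved less than these lists was not tested.

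Histone genes named outside the rule did not change with a passing test. H1f0, a linker histone of polyadenylated mRNA that rises in differentiated cells, was at 205.4 ± 23.3 FPKM (SD, n = 3) in controls and 197 ± 17.2 FPKM (SD, n = 6) in mutants (adjusted p = 0.763, limma), well above Hist1h1c. H1fx, another linker histone, was at 8.58, 11.5 and 7.09 FPKM in controls, 17.6, 7.83 and 7.90 FPKM in set A and 17.9, 17.5 and 9.08 FPKM in set B (adjusted p = 0.489, limma). Cenpa, the centromeric H3, gave -0.12 (adjusted p = 0.452, limma).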

How the data were processed

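Per the labels' protocols, 9 libraries of poly(A) RNA were sequenced as paired ends. The authors deposited 1 table of 24930 symbols, whose unit was read from its values as FPKM; kallisto 0.46.1, DESeq2 1.40.1 and the build mm9 are named in the submitters' processing notes, and the annotation is not given in the sources used here. Estimates shared between near-identical transcripts depend on that step. Members and lists were chosen with earlier results of these data known.

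The 12097 genes that reached 1 FPKM in 3 or more libraries were fitted on log2(FPKM + 1) in limma 3.58.1 (R 4.3.3), with group means over all 9 libraries, trend and robust variance, and Benjamini-Hochberg adjustment over all genes. Fold changes are on that scale and understate those of low genes. Each library of a group is of a different day, so the spread behind each SD and p-value includes any change between days. The labels do not say whether libraries are separate animals, so the rest of that spread may be technical. The day is shared by label between groups and was taken as the pairing, and a day block was an alternative. Deviations of same-day libraries correlated between -0.236 and 0.615 across genes. Further alternatives were pseudocount, filter, scaling, each library left out and, added after seeing the data, near-identical pairs summed. The fit was run on simulated data with large increases in the more abundant genes, which does not show how it performs for small decreases or for low genes.

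Named genes were replacement genes with a mean of at least 1 FPKM, the 12 most abundant replication-dependent genes, members that pass or have the 3 smallest p-values of their class, a fixed set of histone-related genes, and up to 3 passing genes per list. Transcript models of GENCODE M21 (GRCm38) were read by name with no coordinates, and near-identical copies were found with blastn 2.17.0.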

Additional observations from a re-analysis of the deposited data

Results flagged for a closer look

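Of 19 member values tested for a library far from the rest of its group, 1 stood out: Hist2h2be in the 6 mutant libraries. Its highest value, 3.82 FPKM in set B day 9, lay far above the next, 2.54 FPKM, with the lowest at 1.92 FPKM. The gap was 0.674 of the whole range, above Dixon's 95% critical value for 6 samples. Chance flags about 1 in 20 such groups. The same library stands beside the controls over all genes.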

How the results depend on the processing

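Members kept their call of 0 under every alternative run except leaving out set B day 9, where Hist2h2be, H2afv and H2afx passed; leaving out single libraries thus gave 0 to 1 replication-dependent genes with both sets, set A or set B, and 0 to 2 replacement genes with both sets or set B. Over all genes, leaving out single libraries gave 17 to 995 passing genes with both sets, 3 to 126 for set A, 18 to 483 for set B and 0 to 2 for set B against set A. With no filter on low values 80 genes passed with both sets, and with a pseudocount of 0.1 there were 2 for set B against set A. With the day as a block for the pairing, 97 genes passed with both sets, 16 in place of 26 for set A and 63 for set B, and no member did. Of 1048 member fold changes under the alternatives, 1041 kept their side of the threshold and 7 newly passed, all without set B day 9. The sign differed from the reported one in 78, of which 13 came with libraries scaled to equal summed FPKM, and 0 of the 78 passed the threshold. At about 17 to 19.3 fragments per FPKM and kilobase, depth limits the 46 replication-dependent genes under 1 FPKM, most of which could not be tested.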
